A study of Mus musculus with 4 samples.

Results

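The genes described here are the Zscan4 genes and pseudogenes of the mouse, a cluster of near-identical copies on chromosome 7. They are 9 of the 55335 genes in the deposited RNA-seq tables. Their rows were found by symbol: Zscan4a, Zscan4b, Zscan4c, Zscan4d, Zscan4e, Zscan4f, Zscan4-ps1, Zscan4-ps2 and Zscan4-ps3. RNA-seq libraries came from AB2.2, a mouse embryonic stem cell (ESC) line. There were 2 control libraries and 2 libraries of cells given 50 mM lactate for 24 h, to ask how added lactate changes the transcriptome. All cells, controls included, were grown on mouse embryonic fibroblast feeders with 15% serum, 1000 U/ml of leukemia inhibitory factor, 3 μM of the GSK3 inhibitor CHIR99021 and 1 μM of the MEK inhibitor PD0325901. AB2.2 is a single cell line, feeder RNA can be part of each library, and the labels do not say that the 2 libraries of a group came from separate cultures, so p-values measure only the spread between these libraries.

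Zscan4 genes encode proteins with a SCAN domain and zinc fingers, and are known as markers of zygotic genome activation, the first burst of transcription in the embryo. In ESC cultures only a small share of cells carries Zscan4 RNA at any time, and this state comes and goes. Such cells are known for transcripts of the 2-cell embryo, among them the endogenous retrovirus MERVL, and for telomere lengthening by recombination. In bulk RNA, more Zscan4-positive cells and more Zscan4 RNA per positive cell cannot be told apart.

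In GENCODE release M21 on GRCm38, the build of the files, the copies lie between 10794242 and 11614112 on chromosome 7, over 820 kb. They are separated by 54591 to 140218 bases, 5 lie on the minus strand and 4 on the plus strand, and each has up to 4 exons. Despite their names, Zscan4-ps1, Zscan4-ps2 and Zscan4-ps3 are protein coding in GENCODE with an open reading frame of 506 codons, as are Zscan4c, Zscan4d and Zscan4f. Zscan4b and Zscan4e have 505 codons. Zscan4a is an unprocessed pseudogene in GENCODE, so 8 of the 9 copies are annotated as coding there, whereas RefSeq lists only 4 (Zscan4b, Zscan4c, Zscan4d and Zscan4f).

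Because the copies are so alike, their sequences decide how a read can be assigned. Over the longest transcripts, the 36 pairs of copies were 96.6% to 99.8% identical, with a median of 97.4%. The closest pair was Zscan4f and Zscan4-ps2, with 4 differences over 1806 aligned bases, followed by Zscan4b and Zscan4e with 5 over 1722. Zscan4c differed from Zscan4f at 9 of 1806 bases. Of 1710 positions with a base in all 9 copies, 111 (6.49%) varied.

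The 60 bases with the most variation in the coding sequence are shown to make visible what separates the copies. They start at base 597 of each annotated coding sequence, lie in exon 4 of 4 (chr7:11009072-11009131 on the plus strand for Zscan4c) and hold 12 varying positions. Capitals mark a base that differs from the commonest base of the 9 copies at that position.
Zscan4a: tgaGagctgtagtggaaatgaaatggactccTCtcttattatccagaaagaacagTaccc
Zscan4b: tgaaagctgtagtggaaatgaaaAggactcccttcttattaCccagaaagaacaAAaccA
Zscan4c: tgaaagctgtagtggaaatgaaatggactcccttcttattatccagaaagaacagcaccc
Zscan4d: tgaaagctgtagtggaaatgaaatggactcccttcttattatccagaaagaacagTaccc
Zscan4e: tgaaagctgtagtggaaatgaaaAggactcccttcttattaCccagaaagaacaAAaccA
Zscan4f: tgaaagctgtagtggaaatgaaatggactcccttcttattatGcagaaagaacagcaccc
Zscan4-ps1: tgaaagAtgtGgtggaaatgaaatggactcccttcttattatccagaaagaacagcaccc
Zscan4-ps2: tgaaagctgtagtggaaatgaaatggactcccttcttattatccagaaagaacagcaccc
Zscan4-ps3: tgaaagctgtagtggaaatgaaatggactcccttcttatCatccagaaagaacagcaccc
Even in this most variable stretch, Zscan4b could not be told from Zscan4e, nor Zscan4c from Zscan4-ps2. Zscan4b and Zscan4e each carried 5 capitals, Zscan4a 4, and the other copies 2 or fewer.

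At the other extreme, the longest run of coding sequence that was the same in all 9 copies had 99 bases. It covers bases 1407 to 1505 of the Zscan4c coding sequence, in exon 4 (chr7:11009882-11009980, plus strand), and a read that falls inside it fits every copy.
All copies: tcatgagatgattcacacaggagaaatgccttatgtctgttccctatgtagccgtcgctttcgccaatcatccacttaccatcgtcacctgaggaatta

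How much of each copy was its own was counted over every 100-base window of its longest transcript, by asking whether the same letters occur in a transcript of any other gene, on either strand. Zscan4-ps1 (76.6% of windows unique), Zscan4d (70.4%) and Zscan4a (60.9%) were the most distinct copies. Zscan4-ps3 had 47.8%. The remaining copies were low, with 27.2% in Zscan4c, 25.4% in Zscan4-ps2, 21.3% in Zscan4b, 15.9% in Zscan4e and 10.5% in Zscan4f. Of the windows of Zscan4f, 74.9% also occur in Zscan4-ps2 and 69.6% in Zscan4c, and of those of Zscan4b, 77.7% occur in Zscan4e. With windows of 300 bases, near the mean fragment length of 309.2 to 329.5 bases that the RSEM tables imply, the unique share was 33.8% in Zscan4f and 100% in Zscan4d and Zscan4-ps1. These shares cover annotated transcripts only, and windows elsewhere in the genome were not searched.

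The copies also share their promoters. RefSeq promoter sequence, from 250 bases before to 50 bases after the start site on GRCm38.p6, was found for 4 of the 9 copies, Zscan4b, Zscan4c, Zscan4d and Zscan4f. In pairs, they were 95.3% to 99.3% identical, with Zscan4c and Zscan4f the closest. Each is shown over 110 bases, 80 before and 30 from the TATA box on, with the TATA box (TATAAA) in capitals. The stretches lie at chr7:10905052-10905161 (Zscan4b, minus strand), chr7:11005611-11005720 (Zscan4c, plus strand), chr7:11166184-11166293 (Zscan4d, minus strand) and chr7:11397804-11397913 (Zscan4f, plus strand).
Zscan4b: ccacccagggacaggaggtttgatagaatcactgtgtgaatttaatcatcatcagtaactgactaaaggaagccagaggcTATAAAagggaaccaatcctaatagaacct
Zscan4c: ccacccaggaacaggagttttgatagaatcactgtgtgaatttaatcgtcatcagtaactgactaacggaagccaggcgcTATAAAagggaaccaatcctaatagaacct
Zscan4d: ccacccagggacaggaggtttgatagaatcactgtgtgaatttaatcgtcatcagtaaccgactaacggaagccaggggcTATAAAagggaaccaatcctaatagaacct
Zscan4f: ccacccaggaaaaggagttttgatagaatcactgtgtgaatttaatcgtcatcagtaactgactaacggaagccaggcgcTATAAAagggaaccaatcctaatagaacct
TATAAA was in all 4 promoters and in 13.6% of the 32851 RefSeq promoters of 300 bases, both strands searched. It begins 31 bases before the start site in Zscan4b and Zscan4f, 54 in Zscan4c and 65 in Zscan4d. The E-box letters CACGTG were in none of the 4 and in 7.15% of all promoters, and TGCACAC, letters known to be bound by ZSCAN4, were in none of the 4 and in 4.396% of all promoters. As the promoters are near copies of each other, the 4 matches are not independent.

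The libraries were deep and alike in size, with 18067562 to 19077885 reads counted on genes. Mitochondrial genes held 5.48% and 5.72% of these in control and lactate replicate 1, and 2.43% and 2.82% in replicate 2. All 10 ESC markers were counted in every library, with a summed level of 4829 and 5113 CPM (counts scaled to library size, here by TMM) in control and 5120 and 5886 in lactate, and none was called changed. Feeder fibroblast markers were also present, with sums over 10 genes of 2866 and 3036 in control and 3777 and 3370 in lactate, of which fibronectin Fn1 made up most. Tested singly, 4 of the feeder markers were higher with lactate, 6 were lower and none was called. Primitive endoderm markers were low but moved with the groups: the 7 genes summed to 16.4 and 14.4 CPM in control and 27.4 and 20.2 in lactate, the 5 tested were all higher, none was called, and none of the 7 was at 0 in every library. By unadjusted edgeR p under 0.05, 3 ESC markers were higher and 1 lower. In the other lists, 1 feeder marker was lower and 2 primitive endoderm markers were higher. Of all genes tested, 11.7% were higher and 11.4% lower at that p, and 51.0% had a higher fitted level with lactate. DESeq2 called none of the 3 lists' genes. The part of these other cells in the Zscan4 values was not tested.

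Taken as a sum, which depends less on how reads are split between copies, the cluster was about 2.5 times as high with lactate. The 9 copies held 378 raw counts in control replicate 1 and 345 in control replicate 2. Lactate replicate 1 had 1065 and lactate replicate 2 had 853. As CPM, these were 21.9 and 18.2 in control, and 57.3 and 43.2 in lactate. The groups did not overlap, and the lowest lactate library was well above the highest control library. The mean was 20.02 ± 2.60 CPM in control and 50.3 ± 9.94 CPM in lactate (SD, n = 2 each), a 2.51-fold difference. RSEM gave nearly the same, at 2.48-fold from its expected counts and 2.60-fold from TPM, a level per transcript length. The 6 lettered genes alone were 2.49-fold higher, and the 3 copies named as pseudogenes 2.59-fold higher. No p is given for a sum over chosen genes. The smallest two-sided p that an exact permutation of 2 and 2 libraries allows is 0.333.

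**Figure D1:**
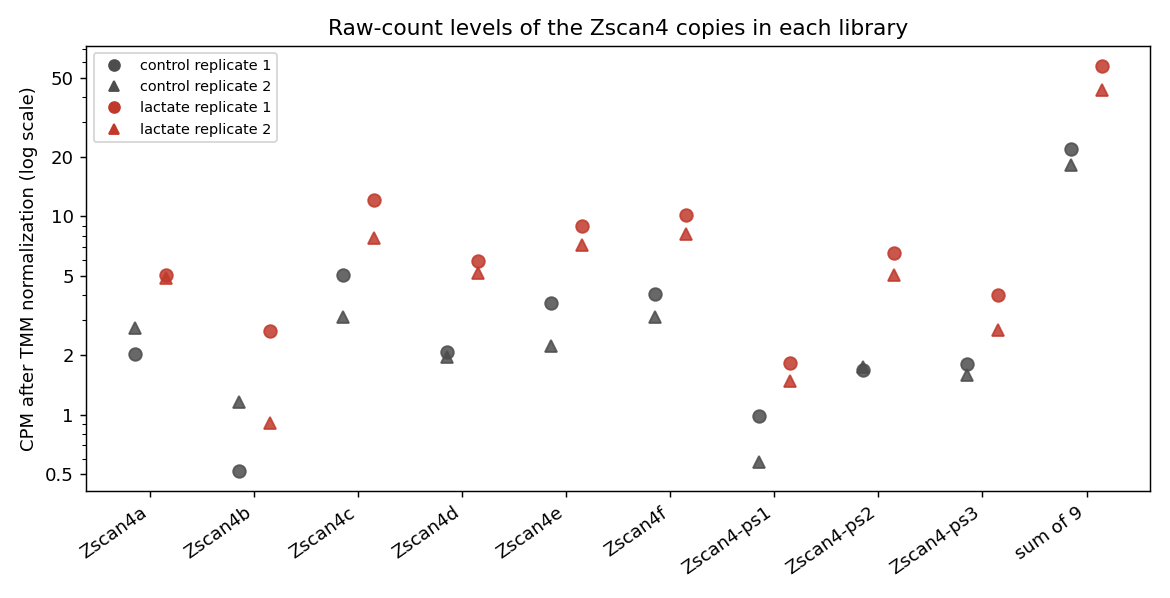
Level of each Zscan4 copy, and of the sum of the 9, as CPM after TMM normalization on a log axis. Each point is 1 library (grey, control; red, lactate; circles, replicate 1; triangles, replicate 2). The red points lie above the grey points for the sum and for every copy except Zscan4b, where lactate replicate 2 (0.912 CPM) lies below control replicate 2 (1.159 CPM).

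Each copy was then tested by the quasi-likelihood method of edgeR on its raw counts, in a fit over the 18661 genes left by the filter for low counts. All 9 copies passed the filter. All 9 had a higher fitted level with lactate, as did 51.0% of all genes tested, and their log2 fold changes ran from 0.99 to 1.76 with a median of 1.28, against a median of 0.01 over all genes tested. In 8 of the 9 both lactate libraries were above both control libraries, which held for 27.0% of genes tested, and 8 had a change above 2-fold, against 4.32% of genes. A gene was called when its Benjamini-Hochberg adjusted p was under 0.05 and its change above 2-fold. By this rule 1 of the 9 copies, Zscan4-ps2, was upregulated, where 0.552% of genes tested were called higher. At an unadjusted p under 0.05, 8 of 9 were higher, against 11.7% of genes. The copies share reads and are not independent measurements. The study had already reported Zscan4 family genes as upregulated with lactate in these libraries, so their direction here is not independent evidence.

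Zscan4-ps2, named as a pseudogene but with a full open reading frame in GENCODE, was the copy that passed. Its raw counts were 29 and 33 in control and 122 and 100 in lactate, or 1.68 and 1.74 CPM against 6.56 and 5.07 CPM. Both lactate libraries were far above both controls, which nearly coincided. The log2 fold change was 1.76 ± 0.25 (SE), with an adjusted p of 0.0467 from edgeR. The call was narrow: it was lost with RSEM expected counts (edgeR adjusted p = 0.0546; range over all alternatives 1.13e-06 to 0.239) and without control replicate 1, when none of the copies was called. Without control replicate 1, 0.229% of all genes tested were called higher. Without lactate replicate 2, 8 copies were called, along with 2.59% of all genes. DESeq2 on the same counts called 5 (Zscan4c, Zscan4d, Zscan4e, Zscan4f and Zscan4-ps2), where it called 1.14% of genes higher.

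Zscan4d, Zscan4f and Zscan4e followed, and none of them met the adjusted threshold of 0.05. Zscan4d, known as the main copy of the 2-cell embryo, had 36 and 37 counts in control and 111 and 102 in lactate. Its log2 fold change was 1.46 ± 0.23 (SE), with an edgeR adjusted p of 0.0516. Its controls were tight and far below both lactate libraries. Zscan4f had 70 and 59 counts in control and 189 and 160 in lactate, a log2 difference of 1.35 ± 0.24 (SE) with an edgeR adjusted p of 0.0559. Zscan4e had 63 and 42 counts in control and 166 and 141 in lactate, a log2 difference of 1.46 ± 0.29 (SE) with an edgeR adjusted p of 0.0640. For Zscan4f and Zscan4e too, the lower lactate library had over 2 times the counts of the higher control library.

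Zscan4c, the copy most often studied in ESCs, had the most raw counts of the 9, at 88 and 59 in control and 225 and 154 in lactate. The groups were apart, but both were spread, at 5.09 and 3.11 CPM in control and 12.1 and 7.81 CPM in lactate. Its log2 fold change of 1.28 ± 0.33 (SE) had an edgeR adjusted p of 0.0963. Zscan4a, the copy without an open reading frame in GENCODE, had 35 and 52 counts in control and 94 and 96 in lactate. The lactate libraries of Zscan4a were nearly equal and above both controls, with a log2 fold change of 1.05 ± 0.24 (SE) and an edgeR adjusted p of 0.0812.

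The 3 other copies were the least certain. Zscan4-ps3 had 31 and 30 counts in control and 75 and 53 in lactate, with a log2 fold change of 0.99 ± 0.30 (SE) and an edgeR adjusted p of 0.128. Zscan4-ps1 had 17 and 11 counts in control and 34 and 29 in lactate, with a log2 fold change of 1.08 ± 0.36 (SE) and an edgeR adjusted p of 0.151. In both, the groups were apart but the counts were few. Zscan4b had 9 and 22 counts in control and 49 and 18 in lactate, so its groups overlapped. Its log2 fold change of 1.05 ± 0.61 (SE) had an edgeR adjusted p of 0.356, and it fell to 0.08 when lactate replicate 1 was left out.

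The raw counts and the RSEM estimates divided the same cluster differently. RSEM shares out reads that fit several copies by an estimate of each copy's level, and the study's methods name STAR's GeneCounts setting for the raw counts, which is known to count reads that map to 1 place. Summed over the 9 copies, the raw count was 86.5% to 92.0% of the expected count in the 4 libraries. By copy, the raw count over all libraries was 58.2% of the expected count in Zscan4-ps2 (284 against 487.6) and 73.9% in Zscan4f (478 against 647.1), the closest pair in sequence. Zscan4c (92.6%) and Zscan4e (94.3%) were near the expected count. Zscan4a (108%), Zscan4b (108%) and Zscan4-ps3 (109%) were slightly above it, and Zscan4-ps1 (126%) and Zscan4d (128%) were furthest above. The last 2 are also the copies with the most unique windows. Zscan4b, with few unique windows but a ratio above 100%, does not follow that order. The cause of these differences was not tested, and the program behind the counts, its handling of reads that map to several places and its use of strand could not be read from the tables.

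**Figure D2:**
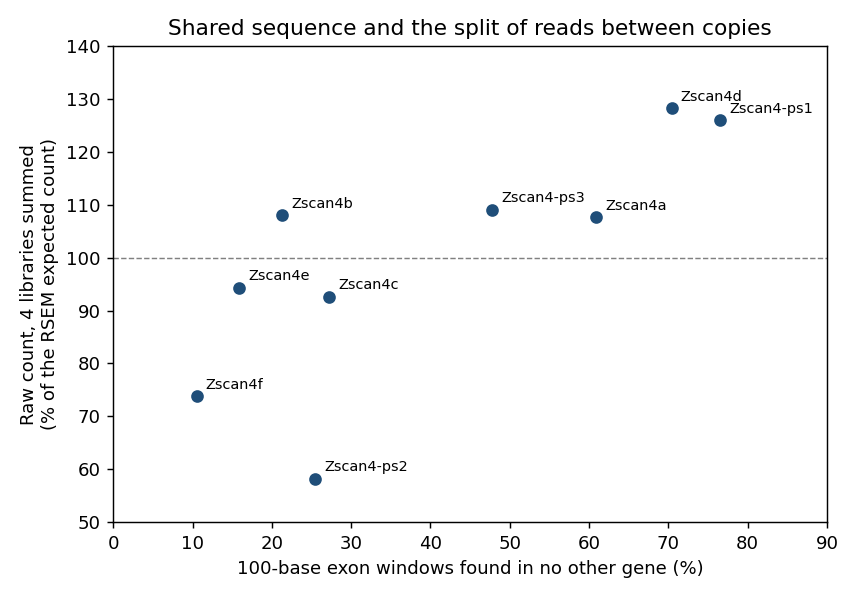
Raw count of each copy as a percent of its RSEM expected count, both summed over the 4 libraries (vertical axis), against the percent of its 100-base exon windows found in no other gene (horizontal axis). Each point is 1 copy and the dashed line marks equal counts. Zscan4-ps2 and Zscan4f lie lowest, at 58.2% and 73.9%, and Zscan4d and Zscan4-ps1 highest, at 128% and 126%.

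The split between copies also varied from library to library. For Zscan4e the raw count was 138% of the expected count in control replicate 1 but 81.4% in control replicate 2, where 42 raw counts stood against 51.6 expected. For Zscan4b the ratio ran from 67.2% in control replicate 1 to 125% in lactate replicate 2. For Zscan4-ps2 it was 51.9% and 51.8% in control and 61.5% and 59.0% in lactate, so it was higher in both lactate libraries. That difference was not tested. The ratio of a single copy could thus move between libraries of the same group or between groups, while that of the sum stayed within 86.5% to 92.0%.

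Fold changes from RSEM were near those from the raw counts. They ran from 0.71 in Zscan4b to 1.70 in Zscan4e on the log2 scale, all 9 above 0, and none was called by edgeR, where 0.173% of genes tested in these counts were called higher. At an unadjusted p under 0.05, 6 copies were higher, against 10.9% of genes, and DESeq2 on these counts called 4 copies and 1.10% of genes higher. Zscan4e had the lowest adjusted p (0.0515 from edgeR with a log2 fold change of 1.70, and 1.21e-06 to 0.208 over all alternatives) in place of Zscan4-ps2 (log2 fold change 1.52). For no copy did the 2 estimates differ by more than the standard error of the raw one.

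**Figure D3:**
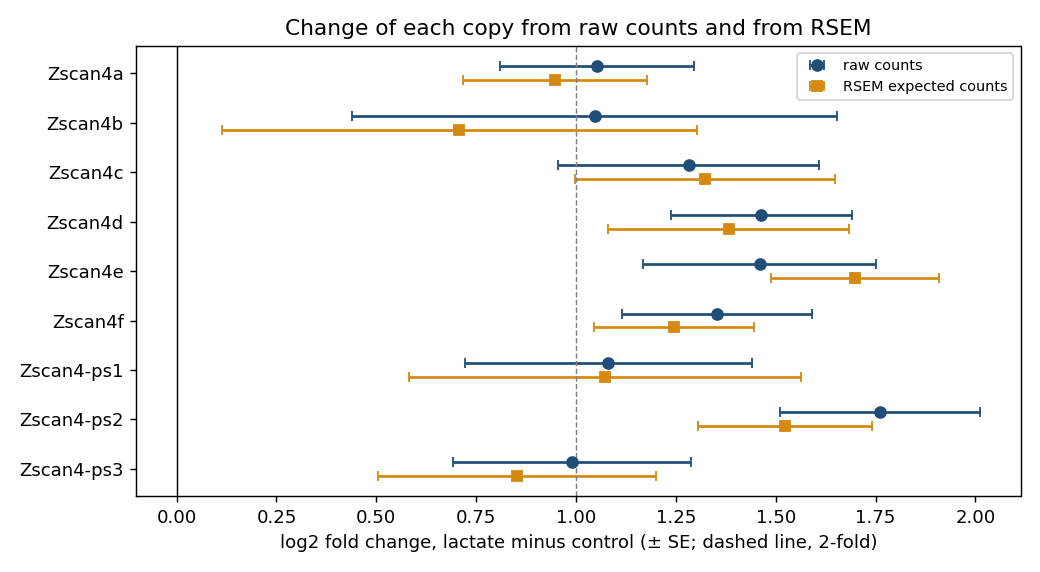
log2 fold change of each copy, lactate minus control, from edgeR on raw counts (blue circles) and on RSEM expected counts (orange squares). Bars are standard errors and the dashed line marks 2-fold. All points lie above 0, from 0.71 (Zscan4b, RSEM) to 1.76 (Zscan4-ps2, raw counts).

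Levels can be compared between copies only per length, and on the TPM scale Zscan4f was the most abundant in both conditions. In control its TPM was 7.41 and 6.44, and in lactate 18.2 and 14.8. In control, Zscan4c (mean 3.36 TPM) and Zscan4e (2.895 TPM) came next and overlapped, followed by Zscan4-ps2 at 2.595 TPM and Zscan4a at 1.81 TPM. Zscan4-ps3 and Zscan4d overlapped, at 1.285 and 1.275 TPM. Zscan4b (0.990 TPM) and Zscan4-ps1 (0.560 TPM) were lowest.

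In lactate the order was much the same below Zscan4f, with a wider spread. Zscan4e (mean 10.1 TPM) overlapped Zscan4c (8.995 TPM), and Zscan4c overlapped Zscan4-ps2 (7.955 TPM). These 3 were above Zscan4a (3.745 TPM), which overlapped Zscan4d (3.57 TPM). From Zscan4a down, through Zscan4d, Zscan4-ps3 (2.485 TPM), Zscan4b (1.71 TPM) and Zscan4-ps1 (1.255 TPM), no copy stood apart from its neighbour in the order. The TPM of Zscan4f also rests on the length RSEM gave it, 1415 bases, the shortest of the 9, where the others had 1745 to 2279. On the expected counts alone, without length, Zscan4f led Zscan4c by less, at 647.1 against 567.9 over the 4 libraries. By raw counts Zscan4f was below Zscan4c, at 478 against 526. RSEM levels also rest on how shared reads were split, and only 10.5% of the 100-base windows of Zscan4f were unique.

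**Figure D4:**
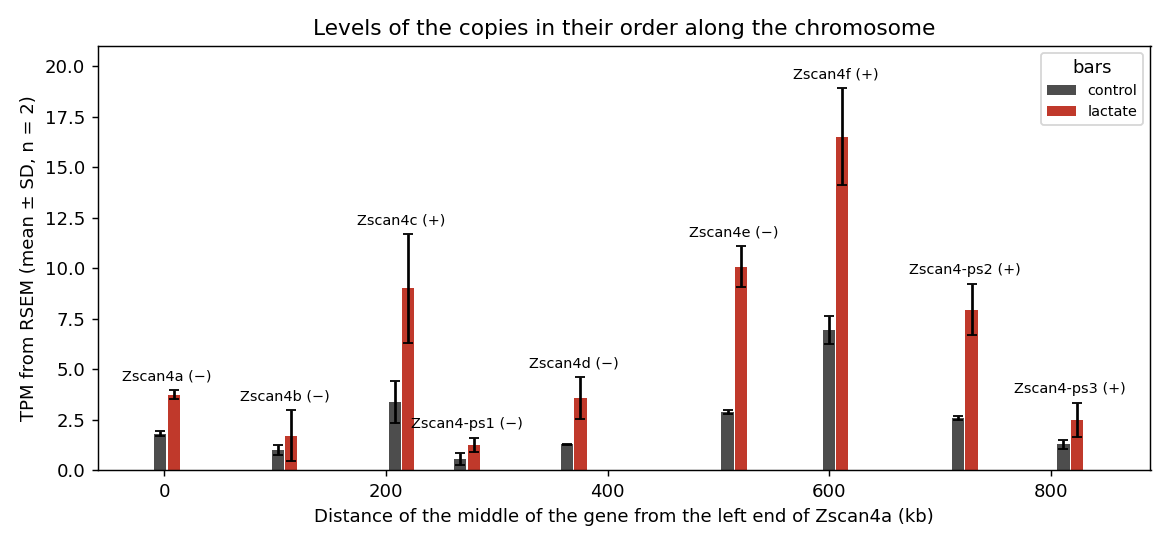
Mean TPM of each copy (bars; error bars, SD, n = 2) in control (grey) and lactate (red), placed by the distance of the middle of the gene from the left end of Zscan4a in kb, with the strand in parentheses and the bars of a copy moved slightly apart. Zscan4f is the highest bar in both groups, at 6.92 TPM in control and 16.5 TPM in lactate.

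The increase was shared by many copies. Of the rise in summed CPM, Zscan4c held 19.4%, Zscan4f 18.4%, Zscan4e 16.9% and Zscan4-ps2 13.6%. Zscan4d held 11.8%, Zscan4a 8.53%, and the 3 remaining copies under 6% each. On TPM, Zscan4f held 27.7%, Zscan4e 20.7%, Zscan4c 16.3% and Zscan4-ps2 15.5%. The same 4 copies thus held the most by either measure, in another order. Within the cluster, Zscan4-ps2 made up 7.67% and 9.57% of the raw counts in control and 11.5% and 11.7% in lactate, and 13.6% and 16.0% of the RSEM counts in control and 16.7% and 17.7% in lactate. Its share was thus higher in both lactate libraries than in both controls by either count. Zscan4-ps2 had the largest fold change of the copies from raw counts, so the rise in its raw share restates that. By RSEM counts the share of Zscan4e rose as well, from 11.1% and 12.9% in control to 14.8% and 17.1% in lactate. Its raw shares overlapped, at 16.7% and 12.2% in control and 15.6% and 16.5% in lactate. No difference in share was tested.

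The genes lying between the copies were nearly silent. The annotation places 44 other genes of the table between Zscan4a and Zscan4-ps3, of which 31 are processed pseudogenes, 10 are unprocessed pseudogenes by either of the annotation's terms for them and 3 are miRNAs. None passed the filter, 32 had no count in any library, and the highest count was 6. Together they had 3 and 11 counts in control and 16 and 22 in lactate, too few for a comparison.

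Other genes of the Zscan name family, taken by symbol and lying outside the cluster, did not show such a change. All 12 were tested, 5 were higher and 7 lower, with a median log2 fold change of -0.04. None was called by edgeR or by DESeq2, and 2 had an unadjusted edgeR p under 0.05, both higher. At that p, 11.7% of all genes tested were higher and 11.4% lower. Zscan30 had 45 and 64 counts in control and 85 and 105 in lactate, with a log2 fold change of 0.72 ± 0.24 (SE) and an edgeR adjusted p of 0.1504. Zscan5b, Zscan26 and Zscan21 followed, at 0.59, 0.29 and -0.25 on the log2 scale.

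Genes known to act on Zscan4, or to act together with its protein, were listed next. Of 15 symbols, 14 were in the table and 13 were tested. No row of the table has the symbol Dux, but a row with the double-homeobox symbol Duxf3 does occur. Duxf3, named after its counts were seen, had 3 and 2 counts in control and 4 and 5 in lactate and was not tested. The missing symbol does not show that Dux was not measured. None of the 13 was called by edgeR or by DESeq2 at the 2-fold limit, and their median log2 fold change was -0.30. At an unadjusted p under 0.05, 2 were higher and 6 lower, where 11.7% and 11.4% of all genes tested were.

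The 4 genes of this list with the lowest p were Ehmt2, Uhrf1, Dnmt1 and Kdm1a, each lower with lactate and none called. Ehmt2, which encodes the histone H3K9 methyltransferase G9a, had 2286 and 3170 counts in control and 1401 and 1806 in lactate. Its log2 fold change was -0.84 ± 0.18 (SE), with an edgeR adjusted p of 0.0678. With DESeq2 it missed the call through the 2-fold limit alone, at an adjusted p of 0.00557, and over all alternatives the adjusted p ran from 2.53e-09 to 0.249. Uhrf1 and Dnmt1, which keep DNA methylation through cell division, were at -0.50 ± 0.15 and -0.46 ± 0.14 (SE). Kdm1a, the histone demethylase LSD1, was at -0.43 ± 0.13 (SE). In all these genes both lactate libraries were below both controls, as in 8 of the 13 and in 25.9% of all genes tested.

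Companions of Zscan4 in 2-cell-like cells were listed as well. The list holds 20 genes, several of which the study drew from these same libraries, so their direction is not independent evidence. In 19 of the 20, tested or not, both lactate libraries were above both controls, as in 27.0% of all genes tested. The exception was Tcstv1, with 2 and 1 counts in control and the same in lactate. The filter kept 15, of which 8 had under 10 counts in at least 1 library. A gene that is high only with lactate passes the filter through its lactate counts, so the direction of the kept genes was partly set by it. The 5 genes left out had at most 12 counts in a library. In the 7 genes with at least 10 counts in every library, the log2 fold changes ran from 0.92 to 1.72. edgeR called 1 of the 15, Gm8300, and DESeq2 called 7, where they called 0.552% and 1.14% of all genes tested higher. DESeq2 gave no adjusted p for Gm2022, Usp17la, Usp17ld, Nat8f2 and Gm17737, so it could not call them. Gm8300 had 22 and 24 counts in control and 76 and 85 in lactate, with a log2 fold change of 1.72 ± 0.24 (SE) and an edgeR adjusted p of 0.0467. The call of Gm8300 was lost without control replicate 1, when none of the list was called, whereas 12 were called without lactate replicate 2, when 2.59% of all genes tested were called higher.

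Among the other companions, counts were small. Gm2022 went from 1 and 1 counts in control to 12 and 13 in lactate, and no fold is given on so few reads. Usp17la, of a deubiquitinase family with near-identical members, had 7 and 7 counts in control and 38 and 29 in lactate. Nat8f2 had 7 and 7 counts in control and 27 and 35 in lactate, and its log2 fold change was 2.05 ± 0.35 (SE). In each, the groups were far apart on few reads, and several of these genes, the Usp17l genes among them, belong to families whose reads may be split between copies. Rows for MERVL-int and MT2_Mm, the internal part and the long terminal repeat of the retrovirus that is on in these cells, were not in the test. MERVL-int stood at 569.1 and 589.0 CPM in control and 1056 and 1167 CPM in lactate, a 1.92-fold difference of the means, and MT2_Mm at 106.3 and 105.7 CPM against 171.4 and 180.6 CPM, or 1.66-fold. In both families the lactate libraries were above the controls by much more than the spread within a group.

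**Figure D5:**
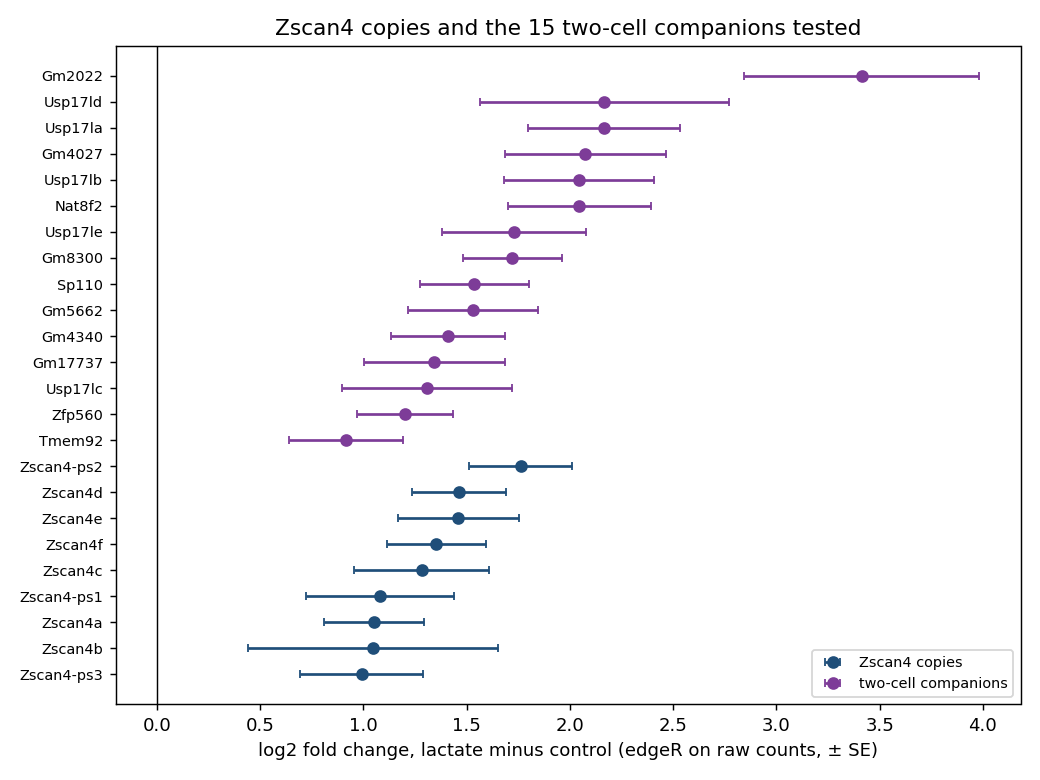
log2 fold change (edgeR on raw counts; bars, SE), lactate minus control, of the 9 Zscan4 copies (blue) and the 15 companions tested (purple), each sorted. All points lie above 0. The value of Gm2022 rests on 1 count in each control library and depends on the fit, and the other companions run from 0.92 to 2.17.

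Telomere genes were listed because Zscan4 is known for telomere maintenance. Of 16 genes, 15 were tested, 11 were higher and 4 lower, and the median log2 fold change was 0.14. None was called by edgeR or by DESeq2, and 3 were higher and 1 lower at an unadjusted edgeR p under 0.05. Of all genes tested, 11.7% were higher and 11.4% lower at that p, and 51.0% had a higher fitted level with lactate. Dmc1, the meiotic recombinase, had 143 and 164 counts in control and 236 and 251 in lactate, with a log2 fold change of 0.59 ± 0.17 (SE) and an edgeR adjusted p of 0.120. Pot1a, a shelterin subunit, was at 0.43 ± 0.13 (SE), Rif1, which binds telomeres and represses Zscan4, at 0.47 ± 0.17 (SE), and Daxx, a histone H3.3 chaperone, at -0.48 ± 0.15 (SE). The catalytic subunit of telomerase, Tert, which was named after its value was seen, was at -0.19 ± 0.14 (SE). In size, all 15 log2 differences were below those of every Zscan4 copy.

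The genes whose pattern over the 4 libraries was most like that of the cluster sum were sought among 18638 other genes tested with a count in every library. Likeness was the root mean square difference of log2 CPM after each was centred on its own mean, given as a description over only 4 libraries that differ in treatment. The closest were Drc7 (0.018), Gm12101 (0.034), Tmem30b (0.057), BC067074 (0.059) and Myo5b (0.060). BC067074 had by far the most counts of these, at 258 and 252 in control and 750 and 649 in lactate, and the others had 75 or fewer in any library. None of the 5 lies on chromosome 7 or was in the lists above.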

How the data were processed

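RNA-seq was performed on 2 control and 2 lactate libraries of AB2.2 cells. The authors used cutadapt 1.16 for trimming, STAR for mapping and the exons of GENCODE M23 (mm10) for counting. They deposited raw counts without normalization for 55335 genes and 1153 transposable element families, and RSEM expected counts, TPM and FPKM for each library. RSEM versions and the counting of transposable elements are not given in the sources used here.

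Groups came from the treatment labels. Genes were filtered with filterByExpr and normalized by TMM (factors 0.959 to 1.04), with transposable elements left out, and lactate was compared with control by the quasi-likelihood test of edgeR 4.0.16 in R 4.3.3, with Benjamini-Hochberg adjustment over all 18661 genes tested. The standard error is the log2 fold change divided by the square root of F. RSEM counts were rounded for edgeR and DESeq2 1.42.0, and limma 3.58.1 was run on log2(FPKM + 1), log2(FPKM + 0.1) and log2(TPM + 1) over genes with a mean above 0.1. Transcripts were aligned with MAFFT 7.526. Tests were tried on simulated counts with 200 changed genes.

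The copies and lists were chosen with earlier results of these data known. All 9 copies are named, and of other lists the called genes and up to 4 with the lowest p, and the 5 genes most like the cluster sum. The 300-base windows were added after the data were seen. Depth was 18067562 to 19077885 gene counts per library.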

Additional observations from a re-analysis of the deposited data

How the results depend on the processing

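The log2 difference of the summed cluster, 1.33, ran from 1.31 to 1.39 over the other counts, units, scalings and sets of copies, was 1.32 as the mean within same-numbered pairs, and ran from 1.11 to 1.52 with each library left out, all within the spread of 0.24 between libraries of a group. The number of copies called changed more with the processing. Against 1 copy called, RLE factors and a minimum of 10 counts in every library gave 1, upper-quartile factors and library totals alone gave 2 each, no filter on low counts gave 6 (1.46% of all genes), DESeq2 gave 5 and DESeq2 on RSEM expected counts gave 4. edgeR on RSEM expected counts and limma on log2(FPKM + 1), log2(FPKM + 0.1) or log2(TPM + 1) gave 0, and leaving out each library gave 0 to 8. Of the companions, edgeR called 1, no filter 13, DESeq2 7, DESeq2 on RSEM 3, edgeR on RSEM 0, the limma fits 0, and leaving out each library 0 to 12. Where an arm was left with 1 library, it was assumed to vary like the other group. The cause of these shifts was not tested. Replicate numbers are shared between the groups, but no label says what a number stands for. Differences between replicates 1 and 2 correlated across 14606 genes between control and lactate (r = 0.729), and with a replicate block edgeR called 7 copies and 14 companions, with 4.08% of all genes called higher against 0.552% without it. No copy changed direction under any alternative fitted, and no other Zscan, regulator or telomere gene was called under any of them. Neighbouring genes could be tested only without the filter (12 genes) and on log2(TPM + 1) (1 gene), with none called. With library totals alone, 108 genes of the whole table were called higher and 40 lower, against 103 and 65. The share of unique windows changed with window length, from 4.66% to 33.8% in Zscan4f between 50 and 300 bases. Depth limits Zscan4b and Zscan4-ps1 most, with as few as 9 and 11 counts in a library.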
